A study of Mus musculus with 24 samples.

Results

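Liver RNA from 4 newborn cloned mice (CC) was compared with liver RNA from 4 newborn control mice (NC). The CC mice were somatic clones derived from cumulus cells, the cells that surround the egg. The NC mice came from ICSI, the injection of a sperm into an egg. All animals were female neonates, and the cross behind them combined C57BL/6 x DBA2 with 129/Sv. The arrays were chosen by sample title and make up 8 of the 24 arrays of the series. The other 16 hold brains of both groups and livers and brains of clones from cumulus cells after 20 generations (G20), which serve here as points of comparison. The G20 liver arrays also entered the model fit, the filter on probes and the choice of the probe for each gene. Each label numbers 1 animal, and nothing in the labels gives litters or nucleus donors, so p-values measure the spread between these samples.

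In somatic cell nuclear transfer the nucleus of a body cell replaces that of an egg, and the marks that nucleus carried on its DNA and chromatin have to be reset. The newborn liver is passing from a blood-forming organ to a metabolic one. It secretes most plasma proteins, makes cholesterol and fatty acids under the SREBP transcription factors and insulin, and releases hepcidin, a hormone that lowers iron export from cells by removing ferroportin. Imprinted genes, active from 1 parental copy, depend on DNA methylation that must survive reprogramming.

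RNA was labelled and hybridised to single-colour arrays. Each level below is the log2 of the scanner's processed signal minus the 75th percentile of its array, so 0 lies at that percentile. Each difference is CC minus NC on this log2 scale, with its standard error (SE) after ±. A gene was called where limma's Benjamini-Hochberg adjusted p was under 0.05 over all 16267 genes tested. In bulk tissue, fewer cells of a type and less RNA per cell cannot be told apart. The tissue label was checked against liver markers: beta-fibrinogen (Fgb) averaged 8.69 in CC livers and 9.20 in NC livers, and apolipoprotein A1 (Apoa1) averaged 8.25 in CC livers and 8.12 in NC livers, near the top of the signal range.

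The arrays differed in ways that touch every result. The CC arrays were scanned 221 days after the NC liver arrays, on a slide of their own, so clone status, slide and scan session cannot be told apart. The G20 liver arrays were scanned in the session of the NC arrays. The 75th percentile of signal was 226 to 253 on CC arrays and 263 to 324 on NC arrays, and the share of probes well above background was 53.5% to 56.3% on CC arrays against 57.7% to 59.6% on NC arrays. Control RNAs are added in fixed amounts during labelling. Of 10 such controls, the 7 with a level above -3 differed between CC and NC by -0.81 to 1.45, and between G20 and NC by -0.0030 to 0.045. Correlations between arrays were 0.979 to 0.988 within CC, 0.986 to 0.989 within NC and 0.973 to 0.979 between CC and NC.

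**Figure D1:**
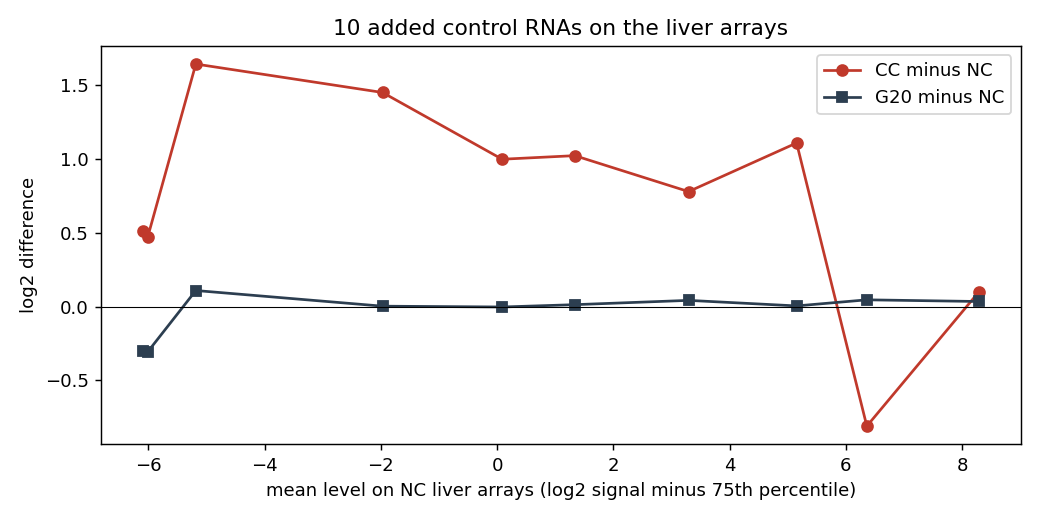
Difference of each of 10 added control RNAs on the liver arrays (vertical axis, log2) against its mean level on NC arrays (horizontal axis, log2 signal minus the array's 75th percentile); circles are CC minus NC, squares G20 minus NC, means of 4 arrays each. CC differences spread from -0.81 to 1.64, and G20 differences above a level of -3 lie between -0.0030 and 0.045.

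The sign of the difference moved with signal level. Among the 154 genes above a mean level of 7, the median difference was -0.39, and 56.5% were called lower in CC and 6.49% higher. Among the 2747 genes between 2 and 4, the median was 0.10, with 26.6% called higher and 14.2% lower. The G20 minus NC medians of these bins were 0.04 and -0.0027. The 99.9th percentile of signal was 46560 to 57558 on CC arrays and 86879 to 96346 on NC arrays. Differences of very bright genes are given below with that brightness, and its part in them was not tested.

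**Figure D2:**
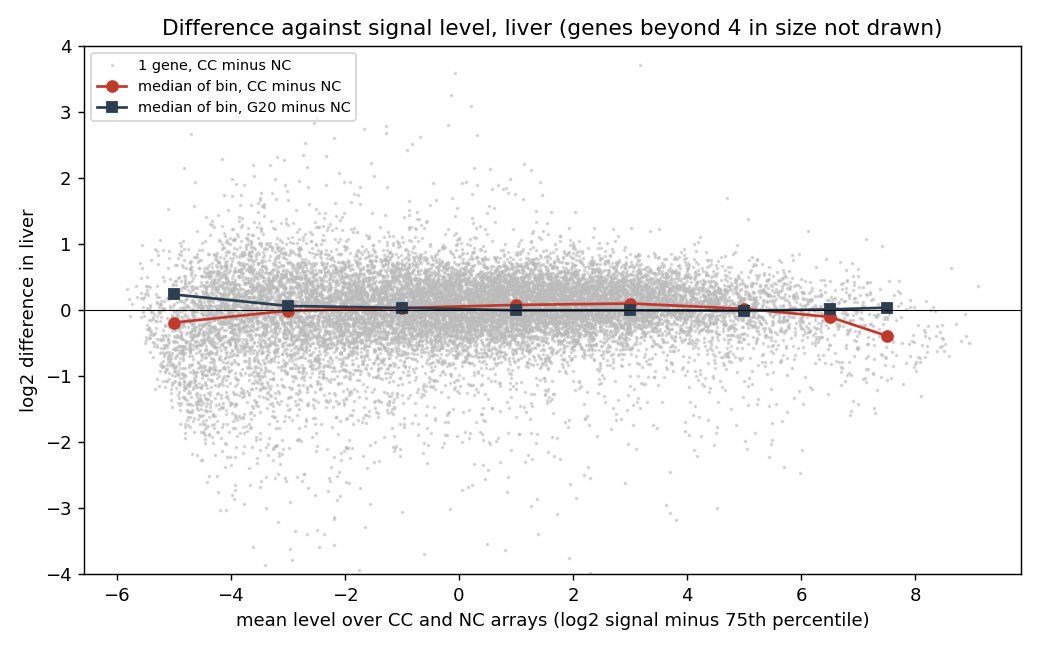
CC minus NC difference of each tested gene (grey points, log2; differences beyond 4 in size are not drawn) against its mean level over CC and NC arrays (log2 signal minus 75th percentile), with bin medians for CC minus NC (circles) and G20 minus NC (squares). The CC median is -0.39 in the brightest bin, where the G20 median is 0.04.

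Of the 16267 genes, 6675 (41.0%) were called, 3329 (20.5%) higher and 3346 (20.6%) lower in CC livers. Counts of called members in the gene lists below are to be read against these shares. At 2-fold or more, 1189 (7.31%) were called, 243 (1.49%) higher and 946 (5.82%) lower. Between the G20 livers and the same NC arrays, 1154 genes (7.09%) were called. In 6307 genes (38.8%) the CC arrays did not overlap the NC arrays. The deposited series matrix, the authors' processed values of these arrays, gave 1282 calls in 14706 genes (8.72%), 640 (4.35%) higher and 642 (4.37%) lower. Both sources called 396 genes (2.69%) with 1 sign, 247 (1.68%) higher and 149 (1.01%) lower, and 165 (1.12%) with opposite signs. After quantile normalization the split of genes called in both was 93 higher and 845 lower. In the matrix, the CC liver columns lay at the level of the G20 columns: over 20607 probes the SD of CC minus G20 was 0.0983, below the 0.189 that the spread within groups alone gives, while the scanner values gave 0.569. How the authors scaled those columns could not be read from the labels or file headers. The matrix is therefore not an independent measure of the difference, and its values stand beside the scanner values as a description.

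The count of calls depended on background correction and scaling together. With normexp, a correction fitted to the scanner's raw and local background signals, 217 genes (1.33%) were called, 32 (0.197%) higher and 185 (1.14%) lower, all of them also called with 1 sign in the processed signal. Normexp followed by quantile normalization, tried after seeing the data, gave 6515 calls. Of the genes named below, Hamp, Pcolce2, Xlr4b, Cyp4a12a, Cyp2c29, Klf2, Cox7c, H2aw, Elane, Igf2, Acly, Hbb-y, Prg2, Crp, Fabp1, Hspa8 and Gsta1 were called with normexp alone and the others were not.

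Different probes of a gene gave a second view. Of 5613 genes with 2 or more probes, 2676 (47.7%) had all probes on 1 side of 0, 456 (8.12%) had all probes called with 1 sign, and 552 had probes called in opposite directions. The SD between probes of a gene was 0.477 for CC minus NC and 0.235 for G20 minus NC. In brain, where CC arrays also came from the later session, 10447 of 14659 genes (71.3%) were called, 6980 (47.6%) higher and 3467 (23.7%) lower. The liver difference departed from the brain difference in 7923 genes (54.0%), upward in 2749 (18.8%) and downward in 5174 (35.3%), and 2869 (19.6%) were both called in liver and departed from brain with the same sign, 1144 (7.80%) higher and 1725 (11.8%) lower.

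Hepcidin was far higher in the clones. Hamp, whose probe lies at chr7:30651231-30651290 of mm8, read 5.26, 4.83, 4.60 and 5.46 in CC livers and 0.69, 2.23, 0.83 and 1.56 in NC livers. Every CC array was more than 2 units above every NC array. The difference was 3.71 ± 0.44 (adjusted p = 5.79e-05), a 13.1-fold higher signal, and leaving out any 1 array kept it between 3.50 and 4.01. The matrix gave 3.14 (adjusted p = 0.00231). With normexp it was 3.47 (adjusted p = 0.00147). The G20 livers averaged 4.95, which was 3.62 above the same NC arrays. Hamp was named because both sources called it, and the matrix CC columns lay at the G20 level. The G20 value is therefore not separate support. Hamp has 1 probe and was not tested in brain.

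The window around the Hamp start is shown because BMP and inflammatory signals act on this stretch of the promoter in mice. It spans chr7:30943980-30944279 on the minus strand of GRCm38.p6, from RefSeq, from 250 bases before to 50 bases after the annotated start. Capitals mark the BMP response element GGCGCC and the STAT motif TTCNNNGAA, searched on both strands, which do not overlap here.
Hamp: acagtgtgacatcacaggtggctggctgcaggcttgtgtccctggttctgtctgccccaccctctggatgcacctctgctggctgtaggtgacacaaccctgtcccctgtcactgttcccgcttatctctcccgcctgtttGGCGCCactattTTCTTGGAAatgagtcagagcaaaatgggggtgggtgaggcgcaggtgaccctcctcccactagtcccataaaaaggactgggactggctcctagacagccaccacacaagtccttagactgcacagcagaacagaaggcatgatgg
GGCGCC began at -109 and the STAT motif at -97 relative to the start. Of 32851 promoter windows of this length, 11.9% held GGCGCC and 8.3% held TTCNNNGAA. A match describes letters and not a bound site.

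The other genes of iron handling did not move as a block. Of 26 tested, 6 were called higher and 3 lower, with a median of 0.01, against 20.5% and 20.6% of all genes. Among the inducers of hepcidin, the ligand Bmp6 differed by -0.25 ± 0.25 (adjusted p = 0.459) and the co-receptor hemojuvelin (Hjv) by -0.06 ± 0.12 (adjusted p = 0.734). The matrix gave 0.65 for Bmp6, not called there, and -0.59 for Hjv, called lower there. Smad1 (0.44) and Smad5 (0.52), which carry the BMP signal to the nucleus, were called higher, and so was their inhibitor Smad7 (0.55). The second probe of Smad1 gave -0.04. Transferrin receptor 2 (Tfr2), an iron sensor, differed by 0.06 and the protease Tmprss6, which cuts hemojuvelin, by -0.35 (adjusted p = 0.0569).

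Downstream of the hormone, ferroportin (Slc40a1), the protein that hepcidin removes, read 4.89, 5.20, 4.96 and 5.04 in CC livers and 4.93, 4.75, 4.77 and 5.20 in NC livers, and the groups overlapped. Of the iron stores and carriers, ferritin heavy chain (Fth1, -0.47) and transferrin (Trf, -0.43) were called lower, both among the genes above a level of 7, with matrix values of -0.12 and 0.03. The importer Slc11a2 was lower (-0.38), with probes from -0.61 to 0.20. Haem oxygenase (Hmox1), which frees iron from haem, was higher by 0.73 ± 0.24 (adjusted p = 0.0311). Hamp2, the second hepcidin gene of the mouse, differed by 0.10 and was near background in both groups.

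Genes of cholesterol synthesis and uptake were lower in the clones. Of 27 tested, 18 (66.7%) were called lower and 1 higher, where 20.6% and 20.5% of all genes were. Their median was -0.79, against 0.04 over all genes and 0.37 for the list in brain. Of the lower genes, 16 also departed from brain downward. Of 18 members with several probes, 17 had all probes below 0 and 8 had all probes called lower. Only 1 of the list had a mean level above 6. With normexp the median was -0.61 and limma called no member, while 10 had an unadjusted p under 0.05. Fdps then had an adjusted p of 0.106. No member was called in both sources, the matrix median was -0.29, and the G20 livers, set against the same NC arrays, had a median of -0.34.

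The mean level of the list was 3.31, 2.90, 2.41 and 2.61 in CC livers and 3.67, 3.58, 3.57 and 3.36 in NC livers. The groups did not overlap, CC 1 lay nearest to the controls and CC 3 farthest from them. The same order of clones held in Fdps, which makes farnesyl diphosphate and whose probe lies at chr3:89180817-89180957 of mm8. Fdps read 3.95, 3.15, 2.33 and 2.76 in CC livers and 5.02, 4.82, 4.75 and 4.90 in NC livers, with more than 0.5 units between the groups. Its difference was -1.82 ± 0.35 (adjusted p = 0.00169), a signal 0.282 times that of the controls, and its 2 probes gave -1.82 and -1.76.

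At the head of the pathway, HMG-CoA synthase (Hmgcs1) read 5.09, 4.79, 4.09 and 4.31 in CC livers and 5.92, 5.89, 5.24 and 5.37 in NC livers, a difference of -1.03 ± 0.25 (adjusted p = 0.00594). Its groups did not overlap, its 3 probes ran from -1.83 to -0.55, and the matrix gave 0.18. Acat2, which joins acetyl-CoA units before it, was the 1 member called higher (0.82), with CC 1 inside the control range.

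Of the mevalonate enzymes, Mvk differed by -1.13, Mvd by -1.20 and the isomerase Idi1 by -0.86, each called lower. The Idi1 call was lost in 4 of 8 fits without 1 array. Phosphomevalonate kinase (Pmvk) read 3.17, 2.73, 1.98 and 2.05 in CC livers and 3.93, 3.77, 3.84 and 3.70 in NC livers, again without overlap, a difference of -1.33 ± 0.31 (adjusted p = 0.00511). Of the later steps, squalene synthase (Fdft1, -0.68), squalene epoxidase (Sqle, -0.79), lanosterol demethylase (Cyp51, -1.54), Nsdhl (-1.24) and the 7-dehydrocholesterol reductase Dhcr7 (-1.06) were called lower. The Nsdhl call was lost in 2 of those fits. Lss (-0.50, adjusted p = 0.105), Msmo1 (-0.77, adjusted p = 0.0514) and Sc5d (-0.87, adjusted p = 0.0543) did not pass the test.

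Among the regulators of the pathway, Insig1, which retains SREBP in the endoplasmic reticulum, differed by -0.79 ± 0.18 (adjusted p = 0.00437). Srebf2, which encodes the main sterol SREBP, differed by -0.08 ± 0.14 (adjusted p = 0.657), and its escort Scap by 0.23 (adjusted p = 0.126).

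**Figure D3:**
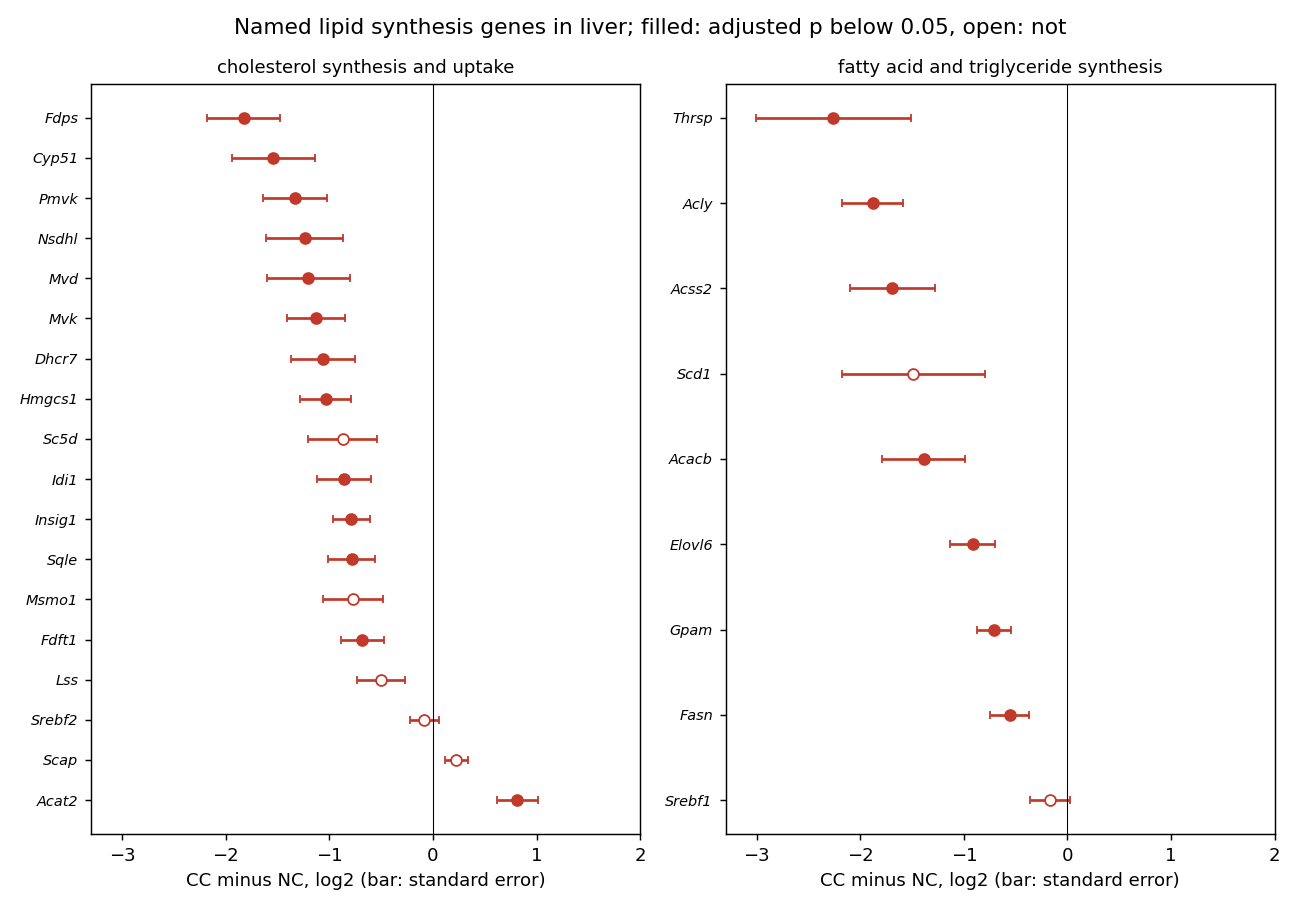
CC minus NC difference (log2, horizontal axis) with its standard error for the 18 named genes of cholesterol synthesis and uptake (left) and the 9 named genes of fatty acid and triglyceride synthesis (right); filled points have an adjusted p below 0.05, open points do not. On the left 12 filled points lie below 0 and 1 above, and on the right all 7 filled points lie below 0.

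Promoters of 3 of these genes are shown because the genes were lower together in the scanner values. Sterol-regulated promoters often pair an SREBP site with a CCAAT box. The matrix gave 0.18 for Hmgcs1, 0.23 for Idi1 and -0.36 for Insig1. Both Idi1 probes are placed on chr2 of mm8 by the array annotation, whereas the Idi1 window lies on chr13. The windows are chr13:119690101-119690400, chr13:8885356-8885655 and chr5:28071162-28071461, on the plus strand of GRCm38.p6, from RefSeq. Capitals mark the sterol regulatory element TCACNCCAC and the CCAAT box on either strand (ATTGG is CCAAT on the other strand), and no match overlaps another.
Hmgcs1: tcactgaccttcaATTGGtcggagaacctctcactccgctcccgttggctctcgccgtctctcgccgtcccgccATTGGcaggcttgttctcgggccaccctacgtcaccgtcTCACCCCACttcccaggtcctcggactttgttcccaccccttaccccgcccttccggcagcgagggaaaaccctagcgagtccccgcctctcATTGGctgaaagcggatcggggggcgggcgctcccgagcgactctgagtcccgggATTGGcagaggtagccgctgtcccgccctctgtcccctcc
Idi1: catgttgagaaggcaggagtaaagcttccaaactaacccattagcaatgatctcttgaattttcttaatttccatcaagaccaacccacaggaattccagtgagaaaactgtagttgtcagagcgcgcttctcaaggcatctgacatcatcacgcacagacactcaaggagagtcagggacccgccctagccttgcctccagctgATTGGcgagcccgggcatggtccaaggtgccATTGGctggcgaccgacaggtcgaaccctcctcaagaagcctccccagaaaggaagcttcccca
Insig1: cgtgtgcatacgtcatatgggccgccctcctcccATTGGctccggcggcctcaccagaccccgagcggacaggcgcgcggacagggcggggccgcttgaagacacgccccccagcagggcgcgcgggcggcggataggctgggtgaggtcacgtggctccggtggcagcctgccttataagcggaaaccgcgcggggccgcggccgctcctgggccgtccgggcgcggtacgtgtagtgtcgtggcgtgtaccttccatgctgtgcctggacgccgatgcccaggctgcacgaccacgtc
TCACNCCAC began at -137 in the Hmgcs1 window and was not in the Idi1 and Insig1 windows. The table held 25 windows for 19 of the 27 cholesterol genes, of which 17 windows held CCAAT and 1 held TCACNCCAC. Of all 32851 windows, 37.4% held CCAAT and 1.24% held TCACNCCAC. These letters describe the windows and were not tested.

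Fatty acid and triglyceride synthesis was lower in part. Of 26 genes, 10 (38.5%) were called lower and none higher, with a median of -0.43, a matrix median of -0.86 and a brain median of 0.33. The G20 livers, set against the same NC arrays, had a median of -0.99, and the matrix CC columns lay at the G20 level. The 4 called in both sources were Thrsp, Acacb, Elovl6 and Gpam. Thrsp, a nuclear protein that follows lipogenic signals, read 1.35, -0.46, -0.23 and -0.08 in CC livers and 2.88, 2.35, 2.09 and 2.30 in NC livers. The groups did not overlap, and CC 1 stood above the other clones. The difference was -2.26 ± 0.75 (adjusted p = 0.0303), a call lost in 6 of 8 fits that left out 1 array. The matrix gave -5.02 for Thrsp, and G20 minus NC in the scanner values was -5.04.

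Acacb, the acetyl-CoA carboxylase of the mitochondrial surface that restrains fat burning, differed by -1.39 ± 0.40 (adjusted p = 0.0166), and its second probe gave -0.83. Elovl6, which lengthens palmitate, differed by -0.92 ± 0.22 (adjusted p = 0.00589), and Gpam, the first enzyme of triglyceride assembly, by -0.71 ± 0.17 (adjusted p = 0.00579). The enzymes that supply acetyl-CoA to both pathways were lower too. Acly, which makes it from citrate, read 0.61, -0.03, -0.05 and -0.09 in CC livers and 2.39, 2.12, 1.95 and 1.49 in NC livers. Acss2, which makes it from acetate, read 1.80, 1.15, 0.59 and 0.53 in CC livers and 3.1, 2.91, 2.84 and 1.99 in NC livers. Neither gene's groups overlapped, and the differences were -1.88 ± 0.29 (adjusted p = 0.000425) for Acly and -1.69 ± 0.41 (adjusted p = 0.00652) for Acss2. Fatty acid synthase (Fasn) differed by -0.56 ± 0.19 (adjusted p = 0.041), a call lost in 7 of 8 fits without 1 array. Stearoyl-CoA desaturase (Scd1) at -1.49 ± 0.69 (adjusted p = 0.106) and Srebf1 at -0.17 ± 0.19 (adjusted p = 0.506) were not called. In the matrix Scd1 gave -2.56 and was called lower.

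Genes of glycolysis and gluconeogenesis did not move as a block. Of 33, 6 were called lower and 3 higher, with a median of -0.01. The glucose-6-phosphate transporter Slc37a4, needed to release glucose, read 4.65, 4.45, 4.47 and 4.78 in CC livers and 5.71, 5.63, 5.54 and 5.92 in NC livers, without overlap, a difference of -1.11 ± 0.11 (adjusted p = 1.27e-05); the matrix gave -0.01. Aldolase A (Aldoa) was higher by 0.98 on a probe measured on 2 of 4 CC arrays and by 1.03 on a probe above background on all 8 arrays, with -0.26 in the matrix for the first. Ppp1r3c, which directs a phosphatase to glycogen, was higher by 1.24.

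**Figure D4:**
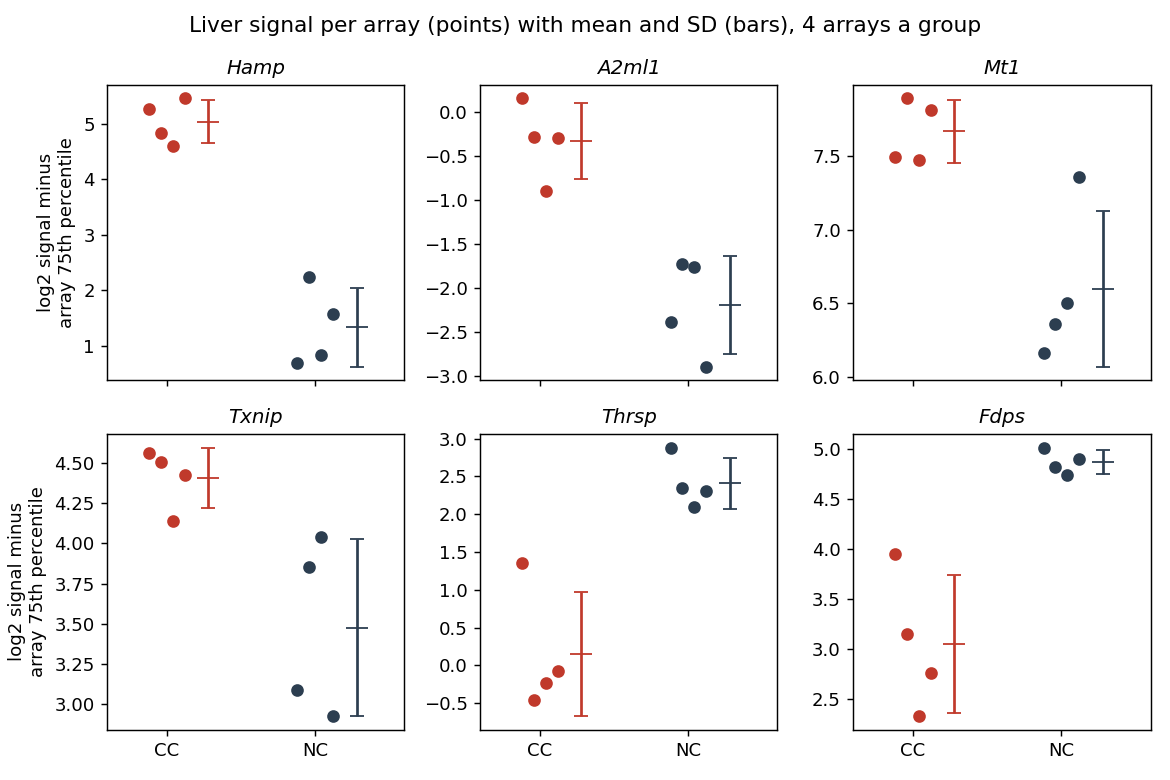
Level per array (points, vertical axis, log2 signal minus the array's 75th percentile) of 6 genes in CC livers (left in each panel) and NC livers (right), with mean and SD as bars, 4 arrays a group. The CC livers lie above all NC livers for Hamp, A2ml1, Mt1 and Txnip and below them for Thrsp and Fdps.

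The plot of levels by array also shows Mt1 and Txnip, from the 8 genes whose every probe was called with 1 sign in both sources and whose groups did not overlap. Since the matrix CC columns lay at the G20 level, a matrix call also favours genes that differ between G20 and NC. Nearness of the G20 livers to the clones in genes named this way is therefore not separate support. Metallothionein 1 (Mt1), which binds zinc, read 7.49, 7.89, 7.48 and 7.81 in CC livers and 6.16, 6.36, 6.50 and 7.36 in NC livers. NC 4 lay close to the clones, and the difference was 1.07 ± 0.26 (adjusted p = 0.00607) with 1.45 in brain. Txnip, which binds thioredoxin and restrains glucose uptake, read 4.56, 4.50, 4.14 and 4.42 in CC livers and 3.09, 3.85, 4.04 and 2.93 in NC livers. Its difference was 0.93 ± 0.22 (adjusted p = 0.00551), with -0.47 in brain, and the tissues departed from each other (adjusted p = 0.000254). The others were the protocadherin Pcdhb17 (0.84, but -0.27 with normexp), Odr4 (0.78) and the hydroxyproline dehydrogenase Prodh2 (0.35), called higher, and Lratd1 (-0.66), the cytochrome Cyp2c40 (-0.73) and the leukocyte sialoglycoprotein Spn (-0.39), called lower.

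Among genes with 1 probe, A2ml1, a protease inhibitor of the alpha-macroglobulin family, read 0.16, -0.28, -0.89 and -0.29 in CC livers and -2.38, -1.72, -1.76 and -2.90 in NC livers. The groups lay apart, and the difference was 1.86 ± 0.28 (adjusted p = 0.000359). It was 3.19 in the matrix, and the G20 livers differed from the same controls by 3.15 in the scanner values. The potassium channel gene Kcnh2 (1.08 in liver and 1.08 in brain) and Ankrd35 (0.95, but -0.22 with normexp) were also higher. Lower were the lysophosphatidic acid receptor Lpar5 (-1.97 ± 0.22), the glucuronosyltransferase Ugt2a3 (-1.54 ± 0.27), Mab21l4 (-1.36 ± 0.28) and Pcolce2 (-1.29 ± 0.16), which aids procollagen processing. Pcolce2 differed by 0.03 in brain (adjusted p of the departure = 2.17e-05).

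Some called genes were above background in 1 group alone: 15 genes (0.0922%) on no NC array and 397 (2.44%) on no CC array, beside fewer probes above background on the CC arrays. A fold against such a group is a bound, set against the lowest signal well above background on each array or the probe's own where higher. Elf4, a transcription factor of the ETS family, had a bound of at least 8.75-fold higher in CC livers, yet its 2 probes gave 3.17 and -1.26. In brain the first of these probes differed by 3.38. Pax2, a kidney transcription factor, was at least 3.82-fold higher, and Rad9b, above background on 2 CC arrays, at least 1.99-fold. With normexp both turned lower, Pax2 at -0.30 and Rad9b at -0.38. The olfactory receptor gene Olfr1153 was at least 30.2-fold lower, the vomeronasal receptor gene Vmn1r192 at least 12.7-fold lower and Arhgap42 at least 7.88-fold lower, with Arhgap42 probes from -2.99 to 0.64. The probe behind that bound kept -3.26 to -2.79 when any 1 array was left out, whereas the other 2 probes, above background on all 8 arrays, gave 0.32 and 0.64. G20 livers differed from the same controls by -0.14 for Olfr1153 and 0.10 for Vmn1r192. Foxa1, a liver pioneer factor, was at least 4.47-fold lower, with 0.27 in G20 livers and -1.54 between CC and NC in brain.

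Several secreted liver proteins are among the brightest signals. Of 29 tested genes of the albumin family and fetal liver proteins, 13 were called lower and 1 higher, with 13 of the 29 above a mean level of 6, with a median of -0.20. Quantile normalization, which gives all arrays 1 signal range, gave -0.05. Alpha-fetoprotein (Afp) read 7.70, 7.73, 7.64 and 7.71 in CC livers and 8.50, 8.48, 8.37 and 8.58 in NC livers. The groups did not overlap, the difference was -0.79 ± 0.08 (adjusted p = 2.5e-05), and the matrix gave -0.02. Albumin (Alb) read 7.45 on the 1 CC array with a measured spot and 8.76, 8.76, 8.65 and 8.85 in NC livers, a difference of -1.31, and the other 3 CC spots had been flagged as outliers. Afp and Alb differed in brain by 1.89 and 1.76. Of 27 apolipoprotein genes, 9 were called lower and 2 higher, with Apoa2 at -1.02 ± 0.08 (matrix -0.01), and a list median of -0.07, or 0.01 after quantile normalization.

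Acute phase proteins (6 higher and 5 lower of 31), complement (8 and 5 of 33) and coagulation genes (8 and 8 of 33) lay close to the shares of all genes. Serpina3n (1.20) and Stat3 (0.89), both of the response to interleukin 6, were called higher, and C-reactive protein (Crp, -1.40) and haptoglobin (Hp, -0.44) lower, Hp with 3 CC arrays measured and a call lost in 3 of 8 fits without 1 array. Serpina7, a thyroxine carrier, read 0.94, 0.76, 0.42 and -0.03 in CC livers and -0.30, -0.51, 0.05 and -1.80 in NC livers, which overlap at CC 4 and NC 3, a difference of 1.16 ± 0.36 (adjusted p = 0.0241), a call lost in 2 of those fits. Serpinf2, which inhibits plasmin, differed by 0.30 ± 0.08 (adjusted p = 0.00756).

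Of 36 drug-metabolising cytochromes of families 1 to 3, 11 (30.6%) were called lower and 3 (8.33%) higher, against 20.6% and 20.5% of all genes. Cyp2c29 read 4.61, 4.82, 4.90 and 5.04 in CC livers and 6.16, 6.33, 6.20 and 6.35 in NC livers, with more than 1 unit between the groups, a difference of -1.42 ± 0.15 (adjusted p = 2.85e-05) and -1.18 in the matrix. Cyp2c39 (-1.86), Cyp2a4 (-1.20), Cyp3a11 (-1.0) and the shared reductase Por (-0.55) were lower as well, and Cyp2b13 was higher (0.91, second probe -0.13). The calls of Cyp2a4 and Cyp2b13 were each lost in 4 of 8 fits without 1 array. These families hold near-identical genes whose probes can share signal. Of 43 conjugating enzymes, 8 (18.6%) were called lower, including Gsta1 (-2.56) and Nqo1 (-1.15), and 3 (6.98%) higher. The share lower was close to that of all genes.

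In fatty acid oxidation, 9 of 39 genes (23.1%) were called higher, close to the 20.5% of all genes, and 4 (10.3%) lower, against 20.6%. Cpt1a, the gate of fatty acids into mitochondria, was higher by 0.64, with its lowest probe at -0.15, and Ppara, the transcription factor of the fasted liver, by 0.60. Fabp1, a carrier of fatty acids (-1.56), the hormone Fgf21 (-1.64) and the hydroxylase Cyp4a12a (-1.27 ± 0.24, matrix -4.84) were lower. For Cyp4a12a, G20 minus NC in the scanner values was -4.83. In urea cycle and amino acid breakdown, 8 of 40 were called higher and 2 lower. The aminotransferase Got2 read 4.29, 4.59, 4.50 and 4.66 in CC livers and 3.58, 3.66, 3.69 and 4.0 in NC livers, without overlap, a difference of 0.77 ± 0.11 (adjusted p = 0.000243). Hal, which starts histidine breakdown, differed by 0.60 ± 0.21 (adjusted p = 0.041), a call lost in 5 of 8 fits without 1 array.

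Imprinted genes did not change as a class. Of 23 paternally expressed genes, 3 were called higher and 3 lower, and of 33 maternally expressed genes 6 and 6, below the shares of all genes. Igf2, the fetal growth factor made from the paternal copy, read 6.07, 6.25, 6.37 and 6.46 in CC livers and 7.71, 7.77, 7.64 and 7.69 in NC livers. The groups lay more than 1 unit apart, with a difference of -1.42 ± 0.10 (adjusted p = 1.05e-06) and -0.90 on the second probe. Igf2 is bright, and the matrix gave -0.02, the G20 livers 0.04 and the brain -0.19. H19, the maternal RNA of the same domain, differed by -0.51 ± 0.10 (adjusted p = 0.00209) at levels above 7.4 on every array. Its second probe gave -0.30 (limma adjusted p = 0.0515). Sfmbt2 (1.40) and Zrsr1 (0.47), listed as paternally expressed, and Tssc4 (0.59), listed as maternally expressed, were called higher. The arrays do not tell parental copies apart, and Sfmbt2 had the opposite sign in the matrix. The call of Zrsr1 was lost in 4 of 8 fits without 1 array.

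Other imprinted genes did not pass the test. Peg3 differed by 0.46 ± 0.21 (adjusted p = 0.0976), Plagl1 by -0.11 ± 0.15 (adjusted p = 0.597), Impact by 0.26 ± 0.12 (adjusted p = 0.0958), Grb10 by -0.15 ± 0.14 (adjusted p = 0.426) and Snrpn by 0.02 ± 0.36 (adjusted p = 0.971). Other probes of Grb10 gave 0.46 and 0.50, neither called. Cdkn1c, a growth-restraining cell cycle inhibitor, read 4.67, 5.08, 4.99 and 5.0 in CC livers and 4.39, 4.36, 4.43 and 6.18 in NC livers, with NC 4 alone above the clones. Dlk1, a fetal growth regulator, read 5.10, 6.03, 5.28 and 5.47 in CC livers and 5.01, 5.20, 5.38 and 6.36 in NC livers, and the groups overlapped. For Plagl1, Impact, Cdkn1c and Dlk1 the matrix gave 1.07, 1.11, 1.28 and 1.13, each called there, and for Snrpn -1.63, called lower there on both probes. For the first 4 genes, G20 minus NC in the scanner values was 1.06, 1.14, 1.31 and 1.10. In brain, Peg3 differed by -1.46 and Plagl1 by -0.96, from which liver departed (adjusted p = 1.26e-06 and 0.000298).

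On the X chromosome, Xist, the RNA that silences 1 X in females, read 4.37, 4.09, 4.50 and 4.26 in CC livers and 4.34, 4.34, 4.37 and 4.40 in NC livers. The groups overlapped, with a difference of -0.06 ± 0.11 (adjusted p = 0.678) on this probe, the brightest of 4. The other 3 probes were each called higher by limma, by 0.27, 0.57 and 0.43 (adjusted p = 0.0209, 0.00108 and 0.00233). Xlr4b, of a lymphocyte-regulated X-linked family, read -0.32, -0.05, -1.19 and -0.61 in CC livers and 1.15, 1.63, 1.22 and 1.36 in NC livers. All CC arrays lay below 0 and all NC arrays above 1, a difference of -1.88 ± 0.27 (adjusted p = 0.000235), with -2.15 in brain. Xlr3c differed by -1.30 ± 0.43 (adjusted p = 0.0303), a call lost in 6 of 8 fits without 1 array, and by -2.39 in brain. Probes of this family of near-identical genes can share signal. By chromosome the median difference ran from -0.01 to 0.08.

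Of 28 germline genes on the array that DNA methylation keeps silent, 5 passed the filter and limma, the one tool run, called none. At an unadjusted p under 0.05 there was 1, where 49.5% of all genes were. Ddx4 differed by 0.59 ± 0.23 (adjusted p = 0.0622), with -0.43 under normexp. Rhox5 differed by 0.48 ± 0.23 (adjusted p = 0.115) and read 1.08, 1.53, 0.55 and 0.54 in CC livers and 0.13, 0.50, 0.94 and 0.22 in NC livers, above the 75th percentile on every array. Of 35 genes of chromatin and DNA methylation machinery, 5 were called higher and 8 lower. The de novo methyltransferases Dnmt3a (0.32) and Dnmt3b (0.35, matrix -0.52) were higher. Tet1, which oxidises methylated cytosine, read -2.49, -2.98, -2.98 and -2.85 in CC livers and -1.41, -1.53, -1.73 and -0.95 in NC livers, without overlap, a difference of -1.42 ± 0.20 (adjusted p = 0.000225), where the matrix gave 0.25. The histone methyltransferase Setdb1 (-0.59) and the deacetylase Hdac2 (-0.78) were lower. Setdb1 differed by -1.35 in brain, by 0.03 in the matrix and by 0.09 between G20 and NC livers.

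Clock genes moved in both directions, 4 higher and 3 lower of 20. The repressor Nr1d2 read -0.54, -0.31, -0.15 and 0.16 in CC livers and -1.38, -1.23, -0.91 and -1.74 in NC livers, without overlap, a difference of 1.11 ± 0.19 (adjusted p = 0.000888), with -0.23 in brain. The output factors Dbp (0.86) and Tef (0.64) and the activator Clock (0.37) were higher, while the repressors Cry1 (-0.86) and Per2 (-0.52) and the activator Arntl (-0.48) were lower. Cry1 and Per2 differed in brain by -1.47 and -0.48. The hour of collection was not among the labels used here.

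Stress genes changed singly. Ddit4, which restrains mTOR, read 5.35, 4.50, 4.91 and 5.20 in CC livers and 4.09, 4.1, 4.02 and 4.53 in NC livers, where NC 4 reached CC 2, a difference of 0.81 ± 0.18 (adjusted p = 0.00427), with 1.22 in brain. Trib3, a pseudokinase of the amino acid response, read 0.73, 0.71, 2.07 and 2.06 in CC livers and -0.16, -0.42, -0.0033 and -0.03 in NC livers. CC 3 and CC 4 stood above the other clones, and its difference of 1.55 ± 0.55 (adjusted p = 0.04) was no longer called in 6 of 8 fits without 1 array. The list of endoplasmic reticulum stress had 8 of 44 higher and 8 lower. The hypoxia list had 9 of 34 higher, including adrenomedullin (Adm, 1.23) and Pfkfb3 (1.24), and 5 lower, including carbonic anhydrase 9 (Car9, -1.25). Its median was 0.25 in liver, 0.45 in brain and -0.11 in the matrix.

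Chaperones had 12 of 40 (30%) lower and 5 (12.5%) higher, against 20.6% and 20.5% of all genes. The constitutive HSP70 gene Hspa8 differed by -1.96 (2 probes from -1.96 to -0.37), Hsph1 by -1.01 and Hsp90aa1 by -0.73. The immediate early gene Klf2 read 4.64, 2.88, 2.88 and 1.71 in CC livers and 6.11, 6.08, 5.81 and 6.10 in NC livers. The groups did not overlap, the difference was -3.0 ± 0.45 (adjusted p = 0.000304), the second probe gave -0.35 and the matrix 0.29. Btg2, which slows cell division, was higher by 0.81 ± 0.20 (adjusted p = 0.00712), with 3 probes from 0.40 to 0.82.

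Of 81 ribosomal protein genes, 42 were called lower and 9 higher, and 64 had a mean level above 6. Their median was -0.30, against 0.02 after quantile normalization and 0.03 in the matrix. After quantile normalization 20 were called higher and 22 lower, while centring on the array median gave -0.22 and normexp -0.26. Of 76 oxidative phosphorylation subunits, 19 (25%) were called lower, with Cox7c at -1.65, and 10 (13.2%) higher, against 20.6% and 20.5% of all genes. Proteasome subunits had 9 of 34 higher and 6 lower. Of 26 histone genes, 9 were called lower and none higher, led by H2aw (-2.02, probes from -2.02 to 0.68).

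**Figure D5:**
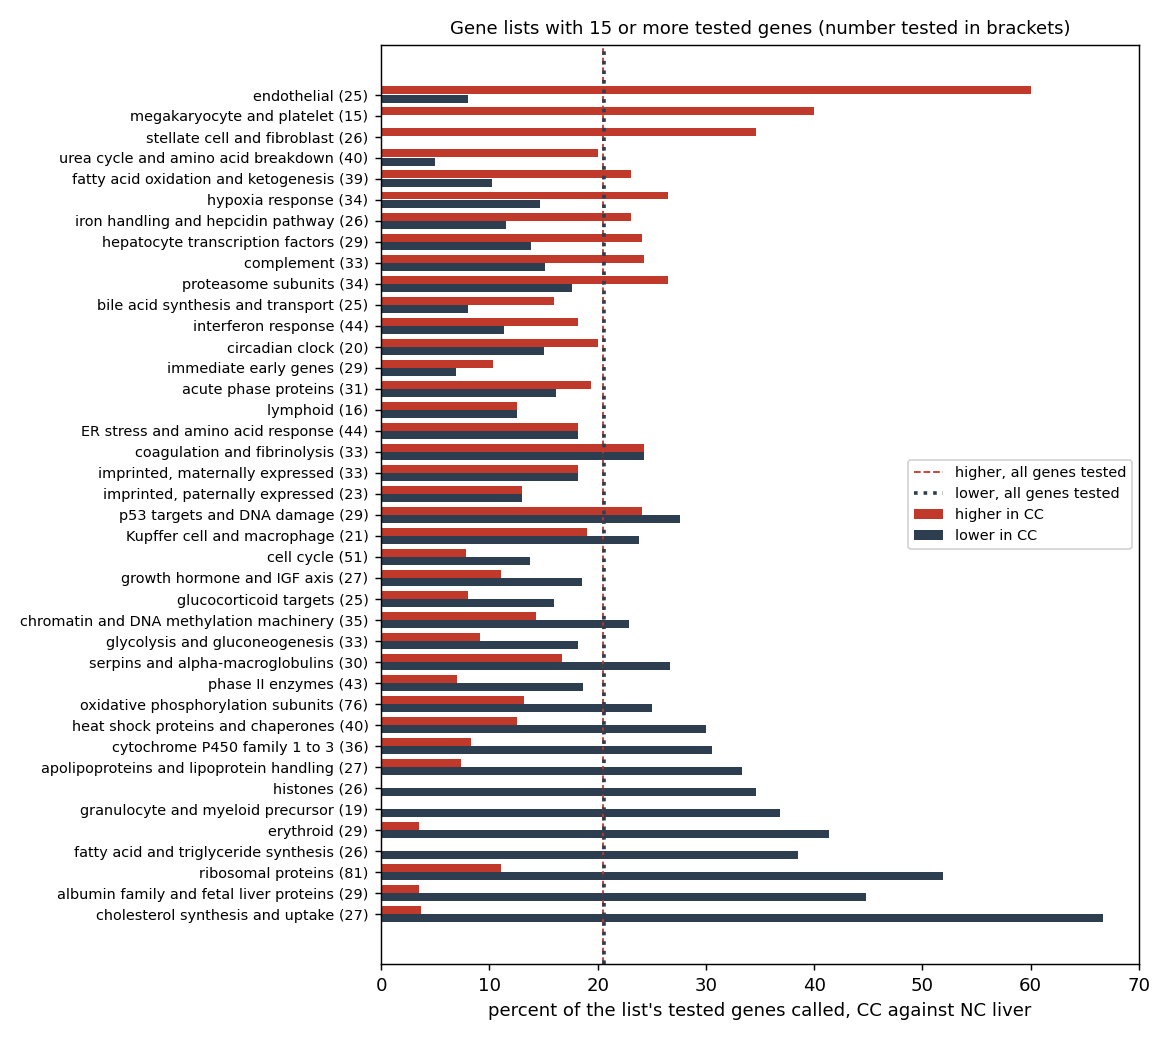
Percent of each list's tested genes called higher (upper bar) and lower (lower bar) in CC against NC livers, for lists with 15 or more tested genes; vertical lines give the percent over all genes tested (20.5% higher, 20.6% lower). Cholesterol synthesis and uptake has the largest share lower of the lists drawn (66.7%) and endothelial markers the largest share higher (60%).

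The plot of shares by list includes markers of the cell types in a newborn liver. Endothelial markers had 15 of 25 higher and 2 lower, with a median of 0.38, 0.64 in brain and -0.24 in the matrix, and none departed from brain in its own direction. The scavenger receptor Stab2 (0.94) and Kdr (0.58), a VEGF receptor, were higher, while Sox18 (-0.49) and Tie1 (-0.53), called in both sources, were lower. Stellate cell and fibroblast markers had 9 of 26 higher and none lower, including Col1a1 (0.68) and Col14a1 (0.87). Their median was 0.32, against -0.15 in the matrix, and their mean level was 1.72, 1.73, 1.5 and 1.36 in CC livers and 1.19, 1.24, 1.24 and 1.31 in NC livers, highest in CC 1 and CC 2. Pdgfra, a growth factor receptor of these cells, read -1.02, -0.61, -0.73 and -0.91 in CC livers and -1.62, -1.52, -1.45 and -1.51 in NC livers, without overlap, a difference of 0.71 ± 0.10 (adjusted p = 0.000232).

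Among blood cells, erythroid markers had 12 of 29 lower and 1 higher. Of all genes, 20.6% were called lower and 20.5% higher, the background for each marker count that follows. The erythroid list median was -0.28 in the scanner values and -0.046 in the matrix. The embryonic globin Hbb-y read -0.82, -1.04, -1.59 and -0.94 in CC livers and 0.33, 0.51, 0.57 and 0.96 in NC livers, without overlap, a difference of -1.69 ± 0.19 (adjusted p = 4.5e-05) and -0.22 in the matrix. Granulocyte markers had 7 of 19 lower and none higher, including the granule proteins Prg2 (-1.98), Elane (-1.69) and Camp (-1.42). The matrix gave -0.18 for Elane and -0.09 for Camp, neither called there. The granulocyte list median was -0.25 in the scanner values and -0.13 in the matrix. Megakaryocyte markers had 6 of 15 higher and none lower, with a median of 0.39 in liver and 0.90 in brain. Only 1 of them departed from brain upward. Vwf and Clec1b also counted among the endothelial markers, and Vwf had probes at 0.81 and -0.59. Mast cell markers had 4 of 5 higher, led by Cpa3 (1.27 ± 0.26), and their median of 0.54 was -0.11 with normexp. Kupffer cell markers had 4 higher and 5 lower of 21, and lymphoid markers 2 and 2 of 16. Hepatocyte markers had 5 of 9 lower, 6 of the 9 above a mean level of 6.

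Skeletal muscle markers set some livers apart. The mean level of 10 such markers was 3.38, 1.53, -2.39 and -2.60 in CC livers and -2.67, -2.62, -1.95 and 0.02 in NC livers, so CC 1, CC 2 and NC 4 were high and the others low. Perinatal myosin (Myh8) read 5.24, 2.96, -2.94 and -4.03 in CC livers and -3.41, -3.93, -2.37 and 1.26 in NC livers. None of the 10 was called by limma or had an unadjusted p under 0.05, with a median difference of 2.04. Without those 3 arrays 5630 genes were called, the cholesterol list had 20 lower and 1 higher, the fatty acid list 6 lower, endothelial markers 11 higher, and stellate markers 4 higher and 2 lower. Neuron and glia markers had 4 of 7 higher, where 20.5% of all genes were, and only these 7 of 15 markers on the array passed the filter. Their mean level was low, -2.39 to -0.82 in CC livers and -2.93 to -2.46 in NC livers. The median difference was 1.06, but -0.059 with normexp, which called none, and 0.11 in the matrix. Among them Tubb3 read 0.20, -1.06, -1.38 and -1.44 in CC livers and -2.37, -2.76, -2.35 and -2.65 in NC livers, highest in CC 1. The matrix gave 0.19 for Tubb3, not called there.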

How the data were processed

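Liver and brain RNA of 3 groups with 4 arrays each was labelled with Cy3, per the labels' protocols. The members and the gene lists were chosen with earlier results of these data known. Per the file headers, Agilent Feature Extraction 9.5.3.1 made the deposited intensity values, and the deposited 0 or 1 spot calls are of another kind. The deposited matrix holds intensity values by the authors whose scaling the labels and headers do not state.

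Spots flagged as non-uniform or as population outliers were left out, spots of a probe averaged, and log2 signals centred on the array's 75th percentile. Of 41174 probes, 23374 were named by RefSeq accession, 6733 by a current symbol and 2919 by an older one, and 8148 kept the file's name. A probe entered if every array of 1 or more liver groups (4 arrays each) called it well above background, and the brightest probe stood for a gene. limma 3.58.1 (R 4.3.3) was fitted over the 12 liver arrays, or all 24 for liver against brain, and tested on simulated data; the number of arrays limits the precision.

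Named were genes called in both sources without overlap (all probes called, up to 8 each way; 1 probe, 5 each way), 3 each way above background in 1 group, per list up to 4 called in both sources or else the 2 lowest adjusted p, and 12 preset genes. Some genes this rule names are not reported here. All other genes were named after their values were seen. Replicate numbers do not pair samples. Alternatives tried were other scalings, background corrections, filters, probe rules, array sets and the matrix.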

Additional observations from a re-analysis of the deposited data

Results flagged for a closer look

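In 23 of 273 groups of 4 arrays examined (8.42%), 1 array stood far from the other 3, by Dixon's test, where chance gives about 1 in 20. The values are log2 levels. CC 1 stood apart in Mx1 (-4.70), Acly (0.61) and Acat2 (1.46). CC 2 stood apart in Hamp2 (-4.83) and Lepr (-2.32). CC 3 stood apart in Rps18 (8.09) and Cel (-3.25). NC 1 stood apart in Gpam (-1.18) and Mx1 (-2.47). NC 2 stood apart in Hal (2.59). NC 3 stood apart in Ddx4 (-5.23) and Klf2 (5.81). NC 4 stood apart in Cyp2c40 (7.82), Cyp2b13 (-3.57), Foxa1 (-2.21), Ddit4 (4.53), Camp (6.08), Kit (0.42), Tff3 (3.61), Cdkn1c (6.18), Dhcr7 (4.40), Hamp2 (-5.14) and Lepr (-3.16).

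The liver and brain differences between CC and NC departed from each other, by limma's test of the difference of differences, in 16 of 27 genes examined, against 54.0% of all genes tested. The liver CC group of Alb was 1 measured array, whose spread is assumed to be that of the other groups. Liver minus brain was 1.40 for Txnip, 0.56 for Pcdhb17, 0.43 for Odr4, -0.68 for Lratd1, 1.38 for A2ml1, 1.34 for Nr1d2, -2.37 for Thrsp, -1.32 for Pcolce2, 1.0 for Rad9b, -3.81 for Olfr1153, -2.24 for Arhgap42, -1.23 for Igf2, 1.91 for Peg3, 0.86 for Plagl1, -3.06 for Alb and -2.68 for Afp, on the log2 scale.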

How the results depend on the processing

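The count of 6675 called genes became 217 with normexp background correction, 6515 with normexp followed by quantile normalization, 10298 with no filter on dim probes and 1282 in the matrix. Leaving out 1 array kept it between 5607 and 6664. With limma fitted to the CC and NC liver arrays alone, 6372 genes were called, and 322 in both sources. The normexp floor lay between 53.5 and 648 on CC arrays and between 86.8 and 376 on NC arrays, and the cause of the lost calls was not tested. The 396 genes called in both sources became 938 (93 higher) with quantile normalization, 13 with normexp, 927 (84 higher) with both together, 243 with replicate number as a block, and 171 to 417 without 1 array. The 7923 genes whose difference departed from brain became 1651 with normexp and 7639 to 8012 without 1 array. Same-numbered CC and NC arrays did not deviate together (r from -0.15 to -0.03), so the block, with 6093 genes called, describes a shared number only. With no filter, 69.1% of calls were higher, against 49.9%. Normexp followed by quantile normalization, and the arrays without muscle markers, were chosen after seeing the data.

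Among genes named by the rule, differences that changed sign and were called in 1 or both settings were, with normexp, Pcdhb17 -0.27, Ankrd35 -0.22, Pax2 -0.30 and Rad9b -0.38; in the matrix, Setdb1 0.029, Tet1 0.25, Apoh 0.25, Rxra 0.13, Klf2 0.29, Atp5b 0.021, Cox7c 0.11, Alb 0.0077, Vwf -0.12, Nkg7 0.23, Kit -0.86, Plagl1 1.07, Dlk1 1.13, Snrpn -1.63, Hmgcs1 0.18, Idi1 0.23, Aldoa -0.26 and Lepr -0.23; and as means over probes, Rps18 0.31, Rps3a1 -0.40 and Xist 0.30. Other genes in the text called in 1 or both sources, with the opposite sign in the matrix, were Stab2, Apoa1, Col14a1, Col1a1, Trf, Cyp51, Mvk, Dnmt3b, Hdac2, Cpt1a, Ppp1r3c, Car9, Pfkfb3, Sfmbt2, Smad5 and Nqo1. Arhgap42 was read from another probe with quantile normalization (0.37), among probes above background on all CC and NC arrays (0.32) and without NC 1, NC 2 or NC 3. Its fits without 1 array ran from -3.26 to 0.35 for that reason, and its first probe from -3.26 to -2.79. List medians that moved by more than the spread between CC arrays were, in the matrix, fatty acid and triglyceride synthesis -0.86, cholesterol synthesis and uptake -0.29, bile acid synthesis and transport -0.40, ER stress and amino acid response 0.25, hypoxia response -0.11, glucocorticoid targets 0.29, immediate early genes 0.47, interferon response -0.42, ribosomal proteins 0.034, hepatocyte -0.17, erythroid -0.046, endothelial -0.24, stellate cell and fibroblast -0.15, cholangiocyte -0.62, mast cell 0.16, neuron and glia 0.11 and adipocyte -0.95; with normexp, germline genes silenced by DNA methylation -0.31, mast cell -0.11 and neuron and glia -0.059; and with quantile normalization, ribosomal proteins 0.020. That listing is not complete. The medians of serpins and alpha-macroglobulins (0.022 in the matrix) and lymphoid markers (-0.0041 in the matrix, -0.076 with normexp) also crossed 0. Other medians that crossed 0 in the matrix include those of p53 targets (0.097), proteasome subunits (-0.034) and Kupffer cell markers (-0.051). In the scanner values these were -0.072, 0.053 and 0.091. The cause of these moves was not tested. The added control RNAs above a level of -3 differed between CC and NC by up to 1.45, which limits how small a difference can be read.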

Other observations

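Several gene groups not described above showed no shared direction. Of 44 interferon response genes, 8 were called higher, with the RNA sensors Oas3 (1.30) and Ddx58 (0.55), and 5 lower, with the antiviral GTPase Mx1 (-1.30 ± 0.25 (adjusted p = 0.00166)), which read -4.70, -3.59, -3.77 and -3.68 in CC livers and -2.47, -2.72, -2.69 and -2.69 in NC livers. The Mx1 groups did not overlap, and 3 of 4 CC arrays were above background. The list median was 0.19 in the scanner values and -0.42 in the matrix. Of 29 p53 targets, 7 were called higher and 8 lower. Phlda3, a target that restrains Akt, read 1.97, 2.04, 2.64 and 2.54 in CC livers and 3.22, 3.09, 3.16 and 2.89 in NC livers, without overlap, a difference of -0.79 ± 0.16 (adjusted p = 0.0019) that departed from the 0.57 in brain (adjusted p = 3.7e-06). Of 51 cell cycle genes, 4 were called higher and 7 lower, among them cyclin E2 (Ccne2, -0.47 ± 0.15, a call lost in 4 of 8 fits without 1 array).

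In the growth hormone and IGF axis, 3 of 27 genes were called higher and 5 lower. Igfbp4, which binds and restrains IGF, read 0.95, 1.07, 0.91 and 0.62 in CC livers and 1.83, 2.04, 1.90 and 2.02 in NC livers, without overlap, a difference of -1.06 ± 0.11 (adjusted p = 2.96e-05), with -0.94 in brain. Pappa, the protease that cleaves Igfbp4, was higher by 1.32. In bile acid synthesis and transport, 4 of 25 were called higher and 2 lower. Abcc3, which exports bile acids to the blood, read 1.16, 1.35, 1.30 and 1.5 in CC livers and 0.67, 0.75, 0.59 and 0.87 in NC livers, without overlap, a difference of 0.61 ± 0.10 (adjusted p = 0.00058), with 1.35 in brain.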
